A study of Mus musculus with 2 samples.

Results

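The 9 genes described here encode transcription factors that pattern the dorsal telencephalon, namely *Pax6*, *Emx1*, *Emx2*, *Lhx2*, *Nr2f1*, *Nr2f2*, *Sp8*, *Dmrta2* and *Dmrt3*. They were chosen by their symbols as 9 of the 32285 genes counted, and each symbol matched 1 row. Counts came from single cell RNA sequencing (scRNA-seq) of the dissected dorsal telencephalon of mouse embryos at embryonic day (E) 14.5, which the labels call brain hemispheres. Both samples are WT controls from an Eomes-Cre line, written EoMltt3 in the sample titles and EomesMllt3 in the series text, and are called replicates 1 and 3 here after their labels, and they form 1 group without a treated counterpart. In that line Cre follows *Eomes*, a gene of intermediate progenitors. Whether each control embryo carried Cre, and whether a library pooled embryos, was not given in the sources used here. Every comparison below is therefore between cell classes within these 2 libraries, and the p-values measure only the spread between them.

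In the developing cortex, signalling centres at the edges of the pallium set up gradients of transcription factors in radial glial cells (RGCs), and these gradients prefigure cortical areas. PAX6 and SP8 are known for rostral gradients and EMX2 and NR2F1 for caudal ones. LHX2 separates cortical progenitors from the hem, the medial Wnt and BMP source. RGCs give rise to intermediate progenitor cells (IPCs) and these to projection neurons, whereas Cajal-Retzius cells and interneurons enter the cortex from its borders and from the ganglionic eminences. Dissociated cells carry no position along these axes, so the levels below are those of cell classes and not of cortical fields.

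Replicate 1 held 6163 cell barcodes and 64182006 unique molecular identifiers (UMIs, each marking 1 captured RNA molecule), and replicate 3 held 8870 barcodes and 93295807 UMIs. After filtering, 5166 and 6906 cells remained and formed 47 clusters. Clusters were named from marker genes, with none of the 9 factors among the markers or among the genes that drove the clustering, so the class names end in "-like". The libraries differed in cells of the ganglionic eminences: LGE lineage-like cells numbered 132 in replicate 1 and 1 in replicate 3, subpallial progenitor-like cells 38 and 1, and other GABAergic-like cells 73 and 2. The libraries shared 23 barcodes. Levels are given as CPM, a gene's UMIs scaled to the same total in every class, and are compared within a gene only, since 3' counts do not rank genes against each other.

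Positions are those of RefSeq on the mouse build GRCm38.p6, which the submitters' processing notes call mm10. *Pax6* lies at chr2:105668896-105698410 and *Lhx2* at chr2:38339271-38369737, both on the plus strand. *Emx2* lies at chr19:59458690-59465357 and *Dmrt3* at chr19:25610246-25623921, also on the plus strand. The remaining plus-strand genes are *Emx1* at chr6:85187931-85204463, *Sp8* at chr12:118846288-118852578 and *Dmrta2* at chr4:109977989-109983691. *Nr2f1* at chr13:78188971-78198873 and *Nr2f2* at chr7:70351946-70366746 are on the minus strand. The sequences upstream of the *Nr2f* and the *Emx* pair are shown because the first pair of paralogs moved together across neurons and the second moved in opposite directions between progenitors. Each line holds the 250 bases before a RefSeq start (for *Nr2f1* the first of 2 starts), 5′ to 3′ on the gene's strand, with capitals marking each match to 1 of 4 motifs on either strand: the nuclear receptor half-site AGGTCA, the TCF/LEF core CTTTGA, the homeodomain core TAATTA and the GC box CCGCCC, where neighbouring matches can run together.
Nr2f1 chr13:78198874-78199123: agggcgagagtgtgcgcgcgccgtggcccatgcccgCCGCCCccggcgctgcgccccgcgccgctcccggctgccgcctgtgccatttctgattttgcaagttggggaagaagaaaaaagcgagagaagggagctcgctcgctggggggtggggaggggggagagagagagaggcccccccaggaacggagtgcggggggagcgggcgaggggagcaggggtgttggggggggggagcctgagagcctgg
Nr2f2 chr7:70366747-70366996: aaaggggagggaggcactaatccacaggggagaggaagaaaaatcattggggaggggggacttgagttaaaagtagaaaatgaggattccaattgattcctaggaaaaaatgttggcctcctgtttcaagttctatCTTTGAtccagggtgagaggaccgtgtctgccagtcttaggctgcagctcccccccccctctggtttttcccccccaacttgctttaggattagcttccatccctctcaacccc
Emx1 chr6:85187681-85187930: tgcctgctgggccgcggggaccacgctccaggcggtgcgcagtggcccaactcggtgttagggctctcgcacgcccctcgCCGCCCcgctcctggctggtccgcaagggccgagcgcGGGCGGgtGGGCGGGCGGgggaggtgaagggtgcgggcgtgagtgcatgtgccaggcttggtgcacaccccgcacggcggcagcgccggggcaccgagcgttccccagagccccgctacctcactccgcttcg
Emx2 chr19:59458440-59458689: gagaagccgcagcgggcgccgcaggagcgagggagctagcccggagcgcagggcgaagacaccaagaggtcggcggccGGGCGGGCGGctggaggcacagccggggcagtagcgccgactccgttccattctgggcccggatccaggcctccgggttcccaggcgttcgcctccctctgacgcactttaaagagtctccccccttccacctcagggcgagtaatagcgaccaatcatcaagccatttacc
The GC box occurred 4 times before *Emx1*, 2 times before *Emx2* and 1 time before *Nr2f1*, and the TCF/LEF core 1 time before *Nr2f2*. Over 32851 promoter windows of this length, 32.7% held a GC box, 13.8% a TCF/LEF core, 14% a nuclear receptor half-site and 4.84% a homeodomain core. A match describes these letters only and is no evidence of binding.

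*Pax6*, a paired-box factor that RGCs need for their proliferation and cortical identity, was highest in RGC-like cells and stepped down along the neurogenic lineage. Its level was 243 CPM in replicate 1 and 206 in replicate 3 in RGC-like cells, 163 and 158 in RGC/IPC-like cells, and 102 and 95.5 in IPC-like cells. Projection neuron-like cells had 6.12 and 7.98 CPM. The libraries did not overlap between any neighbours in this sequence. *Emx1*, a homeobox factor of the pallium, ran the other way within progenitors, with 55.8 and 78.4 CPM in RGC-like, 103 and 149 in RGC/IPC-like and 185 and 207 in IPC-like cells, again without overlap. *Emx2*, its paralog, had 88.3 and 121 CPM in RGC-like cells and 53.0 and 69.0 in IPC-like cells, and was highest in Cajal-Retzius-like cells at 424 and 346.

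*Lhx2*, a LIM-homeobox factor that selects cortical over hem fate, was highest in IPC-like cells with 549 and 576 CPM, above the 367 and 411 of RGC-like cells. *Nr2f1*, an orphan nuclear receptor known for setting caudal area identity, had 365 and 284 CPM in IPC-like and 323 and 277 in RGC-like cells, which overlapped. Its paralog *Nr2f2*, known for the caudal ganglionic eminence and for mesenchyme, was highest in Cajal-Retzius-like cells with 800 and 533 CPM. CGE interneuron-like cells with 389 and 274 CPM, pericyte-like cells with 328 and 258 and meningeal-like cells with 316 and 258 came next for *Nr2f2* among the named classes, and these 3 overlapped each other. *Sp8*, a zinc-finger factor of rostral progenitors and of some interneurons, reached only 11.9 and 14.5 CPM in RGC-like cells. The doublesex-related factors *Dmrta2* and *Dmrt3*, known from medial pallial progenitors, were highest in hem-like cells, *Dmrta2* with 128 and 129 CPM and *Dmrt3* with 95.7 and 59.0. The plot of levels by class shows all 9 factors.

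Of 11 classes with at least 20 cells in each library, 10 pairs of neighbours in the order of mean level were looked at for each factor. Neighbouring classes overlapped in 3 of 10 pairs for *Pax6*, 4 for *Dmrta2*, 5 for *Lhx2*, 6 for *Emx2*, 7 for *Emx1*, *Nr2f1*, *Nr2f2* and *Sp8*, and 8 for *Dmrt3*, so the order is best separated for *Pax6*. In the share of cells with a UMI, each cell was thinned to 3000 UMIs and shallower cells were left out, and red blood cell-like cells served as the background. A *Pax6* UMI was found in 49.1% of RGC-like cells of replicate 1 and 44.7% of replicate 3, beside 4.17% and 1.67% of red blood cell-like cells. For *Lhx2* these shares were 61.9% and 67.0% beside 2.08% and 0. The 0 rests on 60 cells, and the exact 95% interval reached 5.96%. *Sp8*, found in 3.17% and 3.44% of RGC-like cells, and *Dmrt3*, in 2.87% and 5.43%, were within the background intervals in both libraries. Only 5 of the 9 factors had intervals in RGC-like cells wholly above the background intervals in both libraries. The median depths were 12994 and 12018 UMIs in RGC-like and 5311 and 4425 in red blood cell-like cells before thinning. The thinning left out 23 and 39 RGC-like and 9 and 34 red blood cell-like cells. Without thinning the shares of *Sp8* and *Dmrt3* averaged 14.1% and 14.2%.

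The first comparison asked how the factors differ between the RGC-like cells, which line the ventricle, and the IPC-like cells they give rise to. *Pax6* was 2.12-fold higher in RGC-like cells (log2 fold change 1.08 ± 0.17 SE, adjusted p = 6.79e-05 by edgeR's quasi-likelihood test). *Emx2* was 1.6-fold higher (0.67 ± 0.21, adjusted p = 0.0151). *Sp8*, with 2.92 and 8.16 CPM in IPC-like cells, was 2.07-fold higher in RGC-like cells (adjusted p = 0.0332), and this call was lost with DESeq2 (adjusted p = 0.0775). *Emx1* fell by 1.63 ± 0.30 on the log2 scale (adjusted p = 0.000257), so the 2 *Emx* paralogs passed the test in opposite directions. Each library showed these same directions. Of all 12921 genes tested, 41.6% passed in either direction, 21.6% higher and 20% lower, beside 3 and 1 of the 9 factors. That share of the factors is near the background, and the sizes and directions are the description.

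The other 5 factors missed the threshold in this comparison. *Lhx2* had a difference of −0.63 (adjusted p = 0.0664, and 0.0181 with the library as a block), and *Nr2f2* one of −1.14 (adjusted p = 0.0537, and 0.00558 with the block). *Nr2f2* had 36.7 CPM in RGC-like and 72.8 in IPC-like cells of replicate 1, and 19.1 and 42.8 in replicate 3. Both libraries moved in the same direction, and replicate 1 was the higher library in either class. *Nr2f1* differed by −0.21 with a range of 2 SE from −0.71 to 0.29, *Dmrta2* by −0.16 from −0.50 to 0.18, and *Dmrt3* by 0.16 from −0.63 to 0.95. The RGC/IPC-like cells, which carry *Neurog1* and *Neurog2* as leading genes, ranked next after Cajal-Retzius-like cells for *Dmrta2* among the 11 classes ordered above, with 73.1 and 68.4 CPM.

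Other patterning factors of a list of 30 genes were mostly higher in RGC-like cells, with 16 higher and 4 lower of 28 tested and a median of 1.20 on the log2 scale, beside 0 for all genes. They included *Sall3* (4.72 ± 0.49), *Tcf7l1*, a Wnt pathway repressor (3.58 ± 0.31), and the FGF-responsive *Etv5* (2.93 ± 0.54) and *Etv4* (2.85 ± 0.58). Of 20 tested signalling genes 14 were higher and 2 lower, among them *Wnt7a* (3.69 ± 0.33) and the BMP target *Id3* (4.55 ± 0.44). The antisense transcripts *Pax6os1* (1.72 ± 0.27) and *Emx2os* (0.91 ± 0.23) were higher in RGC-like cells, as *Pax6* and *Emx2* were. Whether counting used the strand was not given in the sources used here, so reads where such genes overlap are uncertain.

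The step from IPC-like to projection neuron-like cells addressed which factors are carried into neurons. All but *Nr2f2* were higher in IPC-like cells, 8 of 9, beside 36.2% of all genes in either direction and 17.8% higher in IPC-like cells. *Pax6* had the largest difference at 12.6-fold (3.65 ± 0.19, adjusted p = 1.63e-10), followed by *Dmrta2* at 10.5-fold (3.39 ± 0.19, adjusted p = 2.43e-10), which had 64.0 and 56.0 CPM in IPC-like and 5.61 and 4.45 in projection neuron-like cells. *Emx2* differed by 2.18 ± 0.22, *Sp8* by 2.09 ± 0.37 and *Dmrt3* by 1.73 ± 0.40, all with adjusted p of 0.00305 or below. *Emx2* had 10.96 and 13.8 CPM in projection neuron-like cells.

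In projection neuron-like cells *Lhx2* had 174 and 183 CPM, *Emx1* 56.2 and 70.5 and *Nr2f1* 175 and 135. Their differences from IPC-like cells were 1.55 ± 0.27, 1.53 ± 0.30 and 0.96 ± 0.25, with adjusted p = 0.000141, 0.000473 and 0.00528 by edgeR. The call for *Nr2f1* was lost with a stricter filter on cells (adjusted p = 0.104). *Nr2f2* had 52.2 and 24.97 CPM in projection neuron-like cells and differed by 0.46 ± 0.45 (adjusted p = 0.468). Of 28 tested other patterning factors 14 were higher in IPC-like cells and 5 lower, with *Nr2e1* (3.83 ± 0.24) and *Gli3*, the repressor of ventral fate (3.31 ± 0.49), among the largest. Of 16 tested genes known for areal patterns in neurons 7 were lower in IPC-like cells and none was higher, with *Cdh13* (−6.51 ± 0.51) and *Crym* (−4.93 ± 0.59) the largest.

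**Figure D1:**
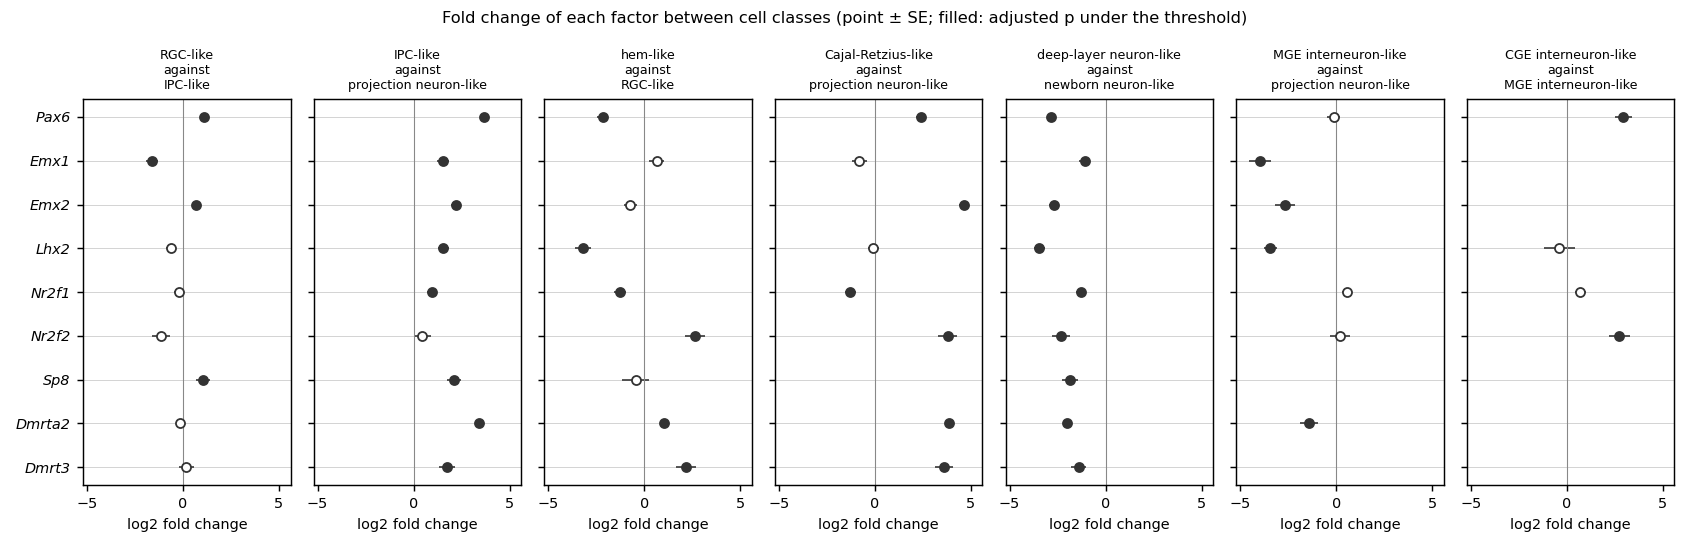
Fold changes of the 9 factors between cell classes. Each panel is 1 comparison, the horizontal axis is the log2 fold change of the first class against the second, points are estimates with SE bars, filled points passed the adjusted threshold, and factors with 3 or fewer UMIs over both libraries of a class have no point. All 9 factors lie left of 0 in deep-layer against newborn neuron-like cells, from −1.10 to −3.44, while Cajal-Retzius-like cells show points on both sides.

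Within projection neurons, deep-layer neuron-like cells, a type born early, were compared with newborn neuron-like cells. The age of the cells was not measured, so layer and maturity cannot be told apart. All 9 factors were lower in the deep-layer neuron-like cells, beside 9.19% of the 14184 genes tested that were lower and 20.2% in either direction. *Lhx2* had 324 and 302 CPM in newborn and 23.6 and 30.2 in deep-layer neuron-like cells, a 10.9-fold difference (−3.44 ± 0.27, adjusted p = 8.44e-09). *Pax6* went from 13.5 and 13.8 to 1.17 and 1.73 CPM (−2.85 ± 0.22) and *Emx2* from 24.1 and 23.3 to 2.89 and 3.38 (−2.69 ± 0.23). The smallest difference was that of *Emx1*, from 74.4 and 91.4 to 32.8 and 40.3 CPM (−1.10 ± 0.28, adjusted p = 0.00801). Newborn and deep-layer values did not overlap for any of the 9 factors. The share of all genes without such overlap is not given here, so this only describes the factors.

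*Nr2f1* fell less than *Nr2f2* in this comparison, by 1.28 ± 0.25 against 2.33 ± 0.48 on the log2 scale, a gap that was not tested. *Nr2f1* had 254 and 163 CPM in newborn and 80.1 and 81.3 in deep-layer neuron-like cells, and *Nr2f2* 82.4 and 31.4 against 11.2 and 9.60. Upper-layer neuron-like cells lay between for *Lhx2*, with 171 and 153 CPM. For *Nr2f1* they had 192 and 190 CPM, between the newborn values of the 2 libraries. *Dmrt3* had the weakest call (−1.41 ± 0.41, adjusted p = 0.0224), from 43 and 109 UMIs in newborn against 14 and 24 in deep-layer neuron-like cells. Of 29 tested other patterning factors 15 were lower and 2 higher in deep-layer neuron-like cells, led by *Zbtb20* (−3.72 ± 0.43) and *Prdm16* (−3.61 ± 0.41).

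Projection neuron-like cells fell into 17 clusters, and *Nr2f1* and *Nr2f2* varied together across them. Pearson's r of their log levels was 0.857 in replicate 1 and 0.905 in replicate 3 over the 17 clusters, which share library and depth, so it is given without a p. The newborn neuron-like cluster led by *Klhl35* and *Neurod1* had the highest level of both, 602 and 597 CPM of *Nr2f1* and 302 and 200 of *Nr2f2*. A newborn neuron-like cluster led by *Tfap2d* had 463 and 414 CPM of *Nr2f1* and 211 and 101 of *Nr2f2*. Among upper-layer neuron-like clusters, the one led by *Tafa1* and *Tafa2* had 317 and 332 CPM of *Nr2f1* and 268 and 119 of *Nr2f2*, above the other 2 for both genes. Those had 198 and 107 and 136 and 151 CPM of *Nr2f1*, and 12.4 and 21.0 and 5.93 and 14.4 of *Nr2f2*. Among deep-layer neuron-like clusters the one led by *Nr4a2* was highest for both genes, with 230 and 257 CPM of *Nr2f1* and 74.1 and 49.0 of *Nr2f2*. *Nr4a2* was also among the subplate markers used for naming, so the deep-layer name of this cluster is uncertain.

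**Figure D2:**
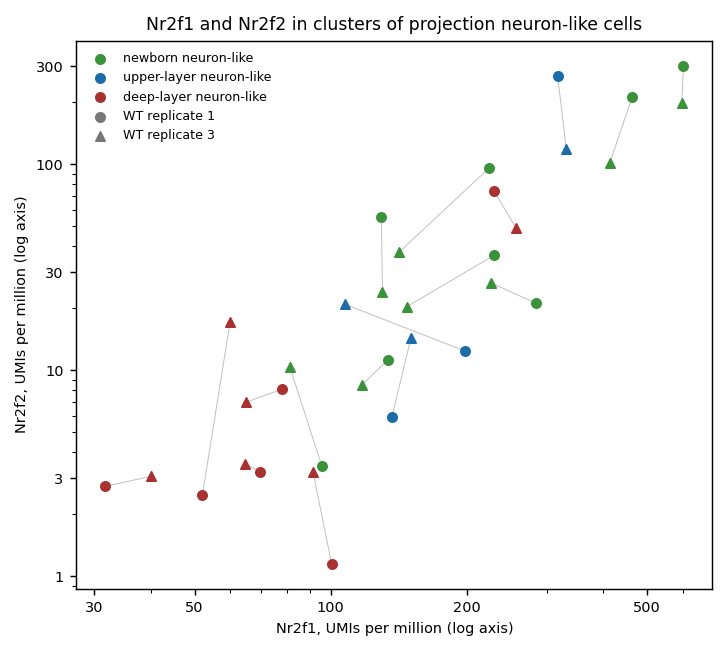
*Nr2f1* and *Nr2f2* in 17 clusters of projection neuron-like cells. Both axes give CPM on log scales, circles are WT replicate 1 and triangles WT replicate 3, joined by a line for each cluster, and colours mark newborn, upper-layer and deep-layer neuron-like clusters. The points rise together from 31.7 and 2.74 in a deep-layer cluster to 602 and 302 in a newborn cluster.

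Other pairs also varied together over the neuron clusters. For *Emx1* and *Lhx2* r was 0.826 and 0.875, and for *Pax6* and *Dmrta2* 0.832 and 0.813. *Lhx2* ranged from 11.8 and 14.1 CPM in the deep-layer neuron-like cluster led by *Hs3st4* and *Mc4r* to 524 and 442 in the cluster led by *Klhl35*. *Emx2* was highest in a newborn neuron-like cluster led by *Gm32647* and *Crym*, with 39.7 and 66.8 CPM, where *Pax6* had 2.94 and 2.11. Under the stricter filter on cells, a cluster led by these genes got no name, so the newborn name is uncertain. The level per cluster was alike in both libraries for *Lhx2* (r = 0.958 over 17 clusters), *Nr2f1* (0.956) and *Nr2f2* (0.922) but not for *Sp8* (0.199), which had 0.897 and 1.16 CPM over all projection neuron-like cells.

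Among the 4 RGC-like clusters, the one led by *Adamts19* and *Ltbp1* (65 and 311 cells) had the highest *Emx2* at 148 and 160 CPM and the highest *Lhx2* at 601 and 519. It also had the lowest *Pax6*, 183 and 153 CPM, against 298 and 237 in the RGC-like cluster led by *Cenpa*. The lowest *Emx2* (65.2 and 84.1 CPM) and *Lhx2* (307 and 306) were in the cluster led by *Veph1*. Since 2 other RGC-like clusters carry mitotic or histone genes, the clusters also differ in cell cycle phase, and its part in these levels was not tested. Among IPC-like clusters, the one led by *Lhx9* had the highest *Lhx2* (723 and 706 CPM), *Emx1* (228 and 247) and *Emx2* (89.9 and 100.5).

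The Cajal-Retzius-like cells, early *Reln* neurons of the marginal zone that arise in part from the hem, were compared with projection neuron-like cells. They numbered 37 and 85. In them *Emx2* was 24.6-fold higher (4.62 ± 0.24, adjusted p = 4.62e-10), with 424 and 346 CPM against 10.96 and 13.8. *Dmrta2* was higher by 3.87 ± 0.21 and *Dmrt3* by 3.58 ± 0.46, with 49.5 and 48.4 CPM of *Dmrt3* against 1.99 and 4.06. *Nr2f2* was higher by 3.80 ± 0.49 (adjusted p = 1.1e-05) while its paralog *Nr2f1* was lower, with 61.9 and 91.6 CPM against 175 and 135 (−1.29 ± 0.28, adjusted p = 0.00215). *Pax6* was higher by 2.38 ± 0.24, with 34.0 and 56.2 CPM. In all, 5 factors were higher and 1 lower, beside 25.6% of all genes called in either direction, 12.1% higher and 13.5% lower.

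*Emx1* had 17.0 and 63.9 CPM in Cajal-Retzius-like cells, so that replicate 1 lay below and replicate 3 within the projection neuron-like range, and its difference of −0.81 did not pass (adjusted p = 0.138, and 0.0289 with the library as a block). *Lhx2* differed by −0.08, a direction that turned without TMM scaling (0.22), with DESeq2 (0.063) and with doublets kept (0.023). *Sp8* had 3 UMIs over both libraries, a ratio of 1.61 with an exact 95% counting interval from 0.324 to 4.92. Without TMM scaling the median of all genes moved by 0.30 in this comparison and the share of calls that were higher went from 47.2% to 72.8%, and with DESeq2 by 0.14 and to 62.3%. The 6 factor calls had the same direction under both. Pericyte markers summed to 60.3 and 38.9 CPM in Cajal-Retzius-like, 1.12 and 1.78 in projection neuron-like and 7728 and 5792 in pericyte-like cells. In Cajal-Retzius-like cells 3 of the 6, *Kcnj8*, *Abcc9* and *Higd1b*, were at 0 in both libraries. Hem markers, of cells also high in *Nr2f2*, *Dmrta2* and *Dmrt3*, summed to 573.9 and 1600.5 CPM in Cajal-Retzius-like cells. They summed to 176.5 and 176.4 CPM in projection neuron-like and 6348 and 6109 in hem-like cells. The part of such cells in the result was not tested. Of 16 tested areal neuron genes 13 were lower in Cajal-Retzius-like cells and none was higher, and of 28 other patterning factors 11 were higher, with *Zic5* (6.99 ± 0.32) and *Zic2* (6.96 ± 0.41) the largest.

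Hem-like cells numbered 10 and 39, and the comparison with RGC-like cells was run only with a lower minimum of 10 cells, chosen after seeing the data. *Lhx2*, the factor that represses hem fate, had 7.98 and 59.0 CPM against 367 and 411 (−3.18 ± 0.42, adjusted p = 1.18e-05). The value in replicate 1 rests on 1 UMI. *Pax6*, with 87.7 and 43.8 CPM against 243 and 206, was lower by a fitted log2 difference of −2.16 ± 0.28, and *Nr2f1*, with 120 and 143 against 323 and 277, by −1.27 ± 0.31. *Dmrt3* was higher, with 95.7 and 59.0 CPM against 10.1 and 17.2 (2.16 ± 0.52, adjusted p = 0.00783). *Dmrta2* was higher by 1.04 ± 0.23 (adjusted p = 0.00294), a call lost with doublets kept (0.60, adjusted p = 0.0531). None of these 5 factors overlapped between the classes. All 5 had already passed the test, and the share of all genes without overlap is not given here.

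*Nr2f2* was 6.19-fold higher in hem-like cells, with 207 and 179 CPM against 36.7 and 19.1 (2.63 ± 0.53, adjusted p = 0.00128). Meningeal markers, a cell type high in *Nr2f2*, summed to 95.7 and 53.3 CPM in hem-like cells, beside 12.3 and 16.8 in RGC-like and 6807 and 6401 in meningeal-like cells. Of these 8 markers *Col1a1*, *Col3a1*, *Lum* and *Foxc1* were at 0 in hem-like cells of both libraries. Cajal-Retzius markers, of cells also high in *Nr2f2*, *Dmrta2* and *Dmrt3*, summed to 343 and 758 CPM in hem-like and 10.8 and 11.3 in RGC-like cells, and endothelial markers to 95.7 and 79.95 against 4.83 and 7.29. The part of those cells in the result was not tested. In all, 3 factors were higher and 3 lower, beside 17.1% of all genes, 8.53% in each direction, a share of higher calls of 50% that went to 62.3% without TMM scaling and to 66% with DESeq2. *Emx1* (0.65 ± 0.40), *Emx2* (−0.72 ± 0.31) and *Sp8* (−0.45 ± 0.70) did not pass. Of 21 tested signalling genes 11 were higher and 6 lower in hem-like cells: *Wnt8b* (6.21 ± 0.78), *Bmp6* (6.41 ± 0.64) and *Wnt5a* (5.08 ± 0.36) were higher and the Wnt inhibitor *Sfrp1* lower (−6.69 ± 0.49). The choroid plexus-like cells, all 23 in replicate 3, had 33.9 CPM of *Dmrt3*, 45.9 of *Dmrta2* and 122 of *Nr2f2*.

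MGE interneuron-like cells, inhibitory neurons that migrate in from the medial ganglionic eminence, were lower than projection neuron-like cells in 4 of the 9 factors. *Emx1* had 3.27 and 4.55 CPM in them against 56.2 and 70.5 in projection neuron-like cells (−3.97 ± 0.55, adjusted p = 2.86e-05). *Lhx2* had 9.82 and 25.5 CPM against 174 and 183 (−3.43 ± 0.35), and *Emx2* 5 UMIs in all (−2.65 ± 0.53, adjusted p = 0.00103). *Dmrta2*, also with 5 UMIs, was lower by −1.40 ± 0.47 (adjusted p = 0.0328), a call lost with DESeq2 (adjusted p = 0.0704), a stricter filter on cells (0.158) and doublets kept (0.845). With doublets kept, *Emx2* lost its call too (−0.45, adjusted p = 0.421), while *Pax6* (1.01, adjusted p = 0.0347) and *Sp8* (1.72, adjusted p = 0.035) came out higher in MGE interneuron-like cells. Of all genes 28.3% were called, 13.4% higher and 14.9% lower. With DESeq2 the share of calls that were higher went from 47.3% to 61.8%.

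*Nr2f1* was carried at 208 and 249 CPM in MGE interneuron-like cells, above both projection neuron-like values, but the difference of 0.54 ± 0.26 did not pass (adjusted p = 0.128). *Nr2f2* with 49.6 and 38.2 CPM lay within the projection neuron-like range and differed by 0.19, with a direction that turned in 3 other settings. *Pax6* differed by −0.13 (adjusted p = 0.819). *Sp8* had 1 UMI and *Dmrt3* 3 UMIs, giving ratios of 0.331 (exact 95% counting interval 0.00825 to 1.91) and 0.334 (0.0683 to 0.99). Projection neuron markers summed to 1810 and 1784 CPM in MGE interneuron-like and 3720 and 3341 in projection neuron-like cells. None of the 8 markers was at 0 in MGE interneuron-like cells. The sum is not split by marker here, and the part of projection neuron-like cells in the result was not tested. The cluster of MGE interneuron-like cells led by *Sst* had the highest *Nr2f2*, 134 and 69.0 CPM, against 38.1 and 30.2 and against 19.7 and 17.9 in the other 2 clusters, and the highest *Lhx2*, 36.4 and 48.0. The *Sp8* paralog *Sp9*, a factor of the ganglionic eminences, was higher in MGE interneuron-like cells by 7.29 ± 0.42.

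CGE interneuron-like cells, 67 and 19 in number, were compared with MGE interneuron-like cells at the same lower minimum. *Sp8* had 34 and 8 UMIs in them, or 102 and 87.7 CPM, against 1 UMI in all MGE interneuron-like cells, a ratio of 289 with an exact 95% counting interval from 49.2 to 11702 (edgeR adjusted p = 5.09e-05). *Nr2f2* had 389 and 274 CPM against 49.6 and 38.2 (2.72 ± 0.55, adjusted p = 0.00793). Meningeal markers summed to 2.99 CPM and 0 in CGE interneuron-like cells, with 7 and 8 of the 8 at 0. *Pax6* had 62.8 and 54.8 CPM against 6.55 and 6.37 (2.94 ± 0.45, adjusted p = 0.000591), and with doublets kept the difference was 1.01 (adjusted p = 0.611). These 3 factors compare with 1.79% of all genes called, 0.668% higher and 1.12% lower. The share of calls that were higher went from 37.4% to 59.1% without TMM scaling and to 73.6% with DESeq2.

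*Nr2f1* had 356 and 581 CPM in CGE interneuron-like cells, above both MGE values, with a difference of 0.69 ± 0.29 that did not pass (adjusted p = 0.314, and 0.029 with DESeq2). *Emx2*, *Dmrta2* and *Dmrt3* had 0 UMIs in 425483 UMIs of CGE interneuron-like cells, which allows up to 7.05 CPM over both libraries. *Lhx2* had 6 UMIs, a ratio of 0.899 (0.314 to 2.11). Other cells of the ganglionic eminences came almost wholly from replicate 1 and are given there without a test. In replicate 1, subpallial progenitor-like cells had 108 CPM of *Sp8* and 326 of *Nr2f1*, and other GABAergic-like cells 115 of *Sp8*, 86.1 of *Pax6* and 206 of *Nr2f2*. LGE lineage-like cells had 120 CPM of *Nr2f1*, 18.9 of *Pax6* and 13.5 of *Nr2f2*. An unnamed cluster led by *Grm8* and *Gng4*, with 69 cells in replicate 1, had 195 CPM of *Pax6* and 204 of *Sp8*, and 0 of *Nr2f2*.

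To ask whether factors accompany each other within RGC-like cells, cells thinned to 3000 UMIs were split by a UMI of *Nr2f1*, *Sp8*, *Emx2*, *Pax6* or *Dmrt3*. None of the other 8 factors passed edgeR's test in any of the 5 splits, beside 0.0394% of all genes for *Nr2f1*, 0.0197% in each direction, and 0% for the others. Genes with an unadjusted p under 0.05 numbered 392, 512, 308, 184 and 595, of 10144, 9274, 10066, 10102 and 9324 tested, and DESeq2 called 5, 1, 0, 0 and 0. The 4 genes called in the *Nr2f1* split were the FGF receptor *Fgfr3* (1.23, adjusted p = 0.0283), *Gm38604* (1.53), *Dct* (−2.55) and *Gm29478* (−3.46). With the library as a block 1 factor passed in the *Nr2f1* split and 0 in the others. Of all genes that fit called 1.66% for *Nr2f1*, 0.66% higher and 0.996% lower. It called 0.162% for *Sp8* (0.097% and 0.0647%), 0.825% for *Emx2* (0.407% and 0.417%), 0.168% for *Pax6* (0.0495% and 0.119%) and 0.74% for *Dmrt3* (0.29% and 0.45%). RGC-like cells with and without an *Emx2* UMI differed by −0.02 in *Pax6*, with 2 SE from −0.33 to 0.30. RGC-like cells with a *Sp8* UMI had 175 and 167 CPM of *Nr2f1* against 300 and 285 without (−0.83 ± 0.23, adjusted p = 0.899). Only 21 and 52 cells had a *Sp8* UMI and 19 and 82 a *Dmrt3* UMI, so a missed threshold there says little. Of cells with a *Sp8* UMI 71.4% and 42.3% were in the cluster led by the histone gene *Hist1h1b*, against 36.2% and 34.3% without. Its part in the difference was not tested.

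*Nr2f2* was the factor that differed most with *Nr2f1*. RGC-like cells with a *Nr2f1* UMI (339 and 716 cells) had 57.1 and 34.0 CPM of *Nr2f2*, and those without (323 and 795 cells) 13.4 and 10.5. The values did not overlap, and the difference was 1.80 ± 0.30 with an adjusted p of 0.104, while with the library as a block it was 1.74 ± 0.25 with an adjusted p of 5.4e-10. Without a filter on low counts edgeR's adjusted p was 6.63e-09. The 4 sums of this split leave almost no residual degrees of freedom once the library is a block. Such p-values lean on a spread shared across genes and are no measure of replication, and they lay far apart between settings. The same direction was seen in 8 of 8 values within the 4 RGC-like clusters and in 10 of 10 over 5 classes, which were looked at after seeing the data and carry no test. Since the 4 clusters make up the RGC-like class, the 2 counts share cells and do not add up. In RGC/IPC-like cells of replicate 3 the direction rested on 7 against 6 *Nr2f2* UMIs. In projection neuron-like cells, 20.9% and 15.3% of cells with a *Nr2f1* UMI had one of *Nr2f2*, against 3.95% and 3.73% of those without. Summed meningeal markers were 12.8 and 20 CPM with and 12.4 and 12.6 without a *Nr2f1* UMI in RGC-like cells, and GABAergic markers 78.7 and 65.6 against 64.0 and 63.3. The paralogs have similar coding sequences, and whether reads were shared between them was not tested.

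**Figure D3:**
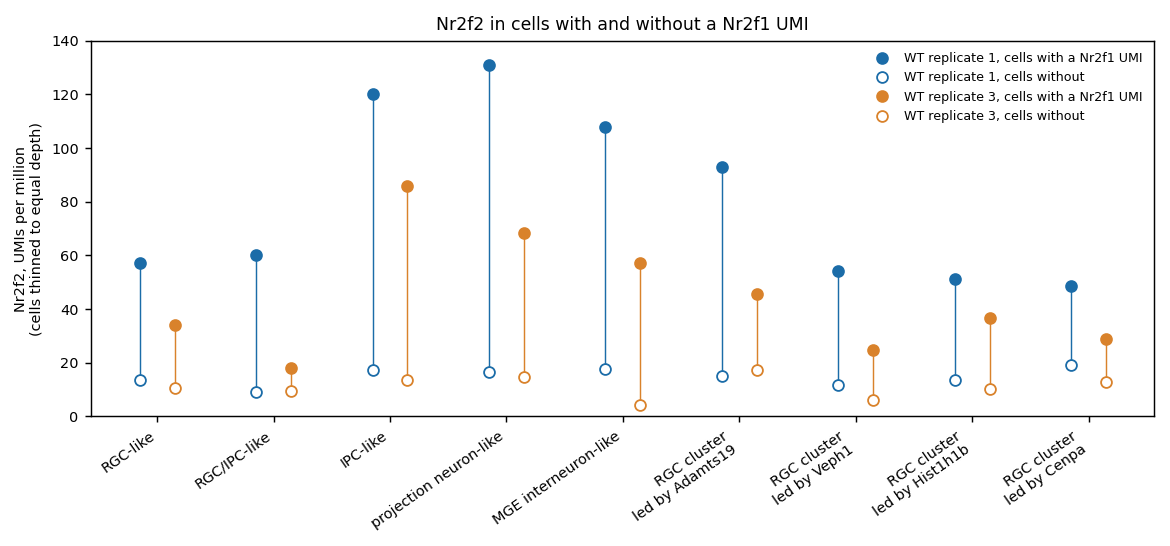
*Nr2f2* in cells with and without a *Nr2f1* UMI. The vertical axis gives *Nr2f2* CPM in cells thinned to equal depth, filled circles are cells with and open circles cells without a *Nr2f1* UMI, blue is WT replicate 1 and orange WT replicate 3, and columns are 5 classes and 4 RGC-like clusters. The filled circle lies above the open one in all 18 pairs, for RGC-like cells at 57.1 against 13.4 and 34.0 against 10.5. The 4 clusters make up the RGC-like class, so their pairs repeat its cells.

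The libraries themselves differed in some factors. Over 5 pallial classes, *Nr2f2* was higher in replicate 1 in each, by a ratio from 1.48 to 2.09. *Emx1*, *Lhx2* and *Sp8* were higher in replicate 3 in each of the 5, with ratios of replicate 1 to replicate 3 from 0.875 to 0.953 for *Lhx2*, from 0.266 to 0.892 for *Emx1* and from 0.358 to 0.895 for *Sp8*. These are differences between 2 single libraries of 1 group and have no replicate check.

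Across 11 classes and 12303 genes, the gene most like *Emx1* in log level was *Lhx2*, and the reverse, with Pearson's r of 0.979. *Emx2* and *Dmrt3* were likewise each other's nearest gene (0.967), followed for *Dmrt3* by *Emx2os* (0.960). *Pax6* was nearest to 3110082J24Rik (0.964), with *Sp8* among its nearest 3 (0.942), and *Dmrta2* had *Btbd17* (0.942) and *Pax6* (0.937). *Nr2f1* and *Nr2f2* did not have each other among their nearest 3: *Nr2f1* had *Arhgef10l* (0.962) and *Nr2f2* had *Inafm1* (0.943). These values describe 11 classes of the same 2 libraries and carry no p.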

How the data were processed

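scRNA-seq libraries (10x 3' v3.1) of WT replicates 1 and 3 were analysed as 1 group of 2. The authors deposited raw UMI counts per gene and barcode, made with Cell Ranger 7.0.0 on mm10 per the submitters' processing notes. The intron, strand and multi-mapping settings were not given in the sources used here, so antisense neighbours and near-identical paralogs are uncertain. A depth between 1500 and 60000 UMIs and a mitochondrial share below 10% were required, and 710 and 1387 barcodes failed. A further 304 (4.93%) and 629 (7.09%) were removed as predicted doublets, with an expected rate that rose with the number of barcodes.

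Cells were clustered with scanpy 1.11.5 and leidenalg 0.10.2 on 2000 variable genes, 30 principal components and 15 neighbours. The 9 factors and the listed genes were left out of the variable genes. Clusters were named from 157 markers of 21 classes, by thresholds set after the data were seen. UMIs were summed per class and library and tested with edgeR 4.0.16 in R 4.3.3 (quasi-likelihood, TMM, filterByExpr, prior count 2, Benjamini-Hochberg over all genes tested, threshold 0.05), after a check on data with planted changes. For RGC-like against IPC-like cells it recovered 4.48% of planted log2 changes of 0.5, 58.2% of 1 and 81.8% of 2. Of its 109 calls 13 were false. For the *Nr2f1* split these shares were 4.48%, 49.3% and 86.4%, and 9 of 102 calls were false. SEs are the fold change divided by the square root of F. All classes with at least 20 cells in both libraries shared 1 fit, and newborn, upper-layer and deep-layer neurons were summed separately. The hem and CGE comparisons used at least 10 cells. A gene with 3 or fewer UMIs over both libraries of a class got a ratio with an exact interval. Intervals cover counting error only.

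Of 14 planned comparisons 10 were run as planned, 2 with the lower minimum, and 2 (subplate, LGE) not at all. No cluster was named subplate-like, and LGE lineage-like cells were under the minimum in replicate 3. Alternatives were a replicate block, no TMM factors, DESeq2 1.42.0, no count filter, doublets kept, a stricter cell filter (3000 UMIs, 5% mitochondrial), the factors allowed among the clustering genes, thinning to 1500 UMIs or none, and each library alone. The sums of 1 replicate number come from the same library, so the numbers pair the samples, and their deviations correlated with r from 0.0355 to 0.315 over 10 pairs of the 5 main classes.

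All 9 factors are named, with up to 4 examples a list, those of largest change past the threshold in the same direction in both libraries. The factors and lists were chosen with earlier results of these data known. Motifs were searched in RefSeq windows, where all 9 factors matched an entry. One listed gene is not reported here.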

Additional observations from a re-analysis of the deposited data

How the results depend on the processing

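Of 486 factor fold changes recomputed under other settings, 452 kept their direction and side of the threshold. Without a change of sign 8 lost and 16 gained a call, and 10 changed sign. Among those 10, *Pax6* and *Sp8* in MGE interneuron-like cells also gained a call with doublets kept. None of the 299 values of called factors changed sign, and no called factor changed sign in either library alone. Uncalled factors did, such as *Pax6* (0.083) and *Nr2f2* (−0.083) of MGE interneuron-like cells in replicate 1. Of 134 single-library differences 15 moved by more than the spread. That spread was taken from the same 2 differences, so staying within it says little about stability. In the paired fit with the library as a replicate block, *Lhx2* (−0.63) and *Nr2f2* (−1.16) passed between RGC-like and IPC-like cells, *Emx1* (−0.89) between Cajal-Retzius-like and projection neuron-like cells and *Nr2f2* (1.74) in the *Nr2f1* split. The block changed no other call of a factor.

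Sign changes for *Lhx2* in Cajal-Retzius-like cells were 0.22 without TMM, 0.063 with DESeq2 and 0.023 with doublets kept. For *Nr2f2* in MGE interneuron-like cells they were −0.10 without a count filter, −0.13 with stricter cells and −0.0013 with the factors among the clustering genes. With doublets kept *Pax6* was 1.01 and *Sp8* 1.72 there. Between CGE and MGE interneuron-like cells *Lhx2* was 0.40 with the factors among the clustering genes. *Dmrt3* was 0.056 there with DESeq2, but with 0 UMIs against 3 its sign depends on the prior and the scaling, and no direction is read from it. The cause was not tested.

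Genes called in the MGE comparison went from 3662 to 2373 with stricter cells, and in the CGE comparison from 214 to 408 without a count filter. In the *Nr2f1* split they went from 4 to 168 (block), 8 (no TMM), 76 (no count filter) and 0 (thinned to 1500 UMIs), with 1 factor called under the block and 1 without a count filter. In the *Sp8* split they went from 0 to 15 (block), 1 (DESeq2), 25 (no count filter) and 3 (1500 UMIs). The *Emx2* split gave 83 and 37, the *Pax6* split 17 and 3 and the *Dmrt3* split 69 and 76, each with the block and without a count filter. Without thinning, the share of RGC-like cells with a UMI was above background for 9 factors in place of 5.

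Counts of calls have no value for 1 library alone, since no residual degrees of freedom are left, and the CGE comparison had too few cells under the stricter filter. With 2 libraries and 10 and 39 hem-like or 67 and 19 CGE interneuron-like cells, single UMIs decide low values: *Lhx2* in hem-like cells differed by −5.60 in replicate 1 and −2.90 in replicate 3.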
